A study of Homo sapiens with 12 samples.

Results

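The small leucine-rich proteoglycans examined here are 10 genes, LUM, DCN, KERA, EPYC, BGN, OGN, ASPN, FMOD, PRELP and OMD, taken by their current symbol in the array's annotation, out of 19775 genes measured. The choice was made with measured values of these arrays in view, among them the line means of the 10 genes, so the levels of the 10 are described below without a test. All 10 were measured, by 24 probe sets in all, of which 4 carry names ending in _x_at, the manufacturer's mark for probes that can cross-hybridise. DCN had 7 probe sets, BGN and PRELP 3 each, LUM, OGN, ASPN and OMD 2 each, and KERA, EPYC and FMOD 1 each. Where a gene had several, the brightest probe set, by its mean level, stands for the gene.

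The arrays hold 4 established human ovarian cancer cell lines, each untreated and described in the labels as parental, with 3 arrays per line and 12 in all. IGROV1 and the clear cell carcinoma line TOV21G were grown in RPMI, as was the endometrioid carcinoma line TOV112D, which the sample titles write T112D. SKOV3 was grown in DMEM, and all media held serum. Each tumour type named here is represented by 1 line, so line and tumour type cannot be told apart. Nor can the SKOV3 label be told apart from growth in DMEM. The labels do not say whether the 3 arrays come from 3 cultures. The p-values given below rest on array-to-array spread alone, and this spread may be technical.

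All values are log2 expression levels after robust multi-array averaging (RMA), which puts the arrays on 1 scale. Values of about 2 to 3 are called the floor here. No detection calls were used, and probe sets of 1 gene could lie at different levels, so a value above the floor does not by itself show detection. The median of all deposited values was 4.44 and their 5th percentile 2.20. ERBB2, which is known to be amplified in SKOV3, was at 8.14 ± 0.09 (SD, n = 3) in the SKOV3-labelled arrays and at 8.48 to 9.01 in the other lines, so the group is named by its label throughout. The epithelial keratins KRT8 and KRT18 were at 5.29 and 5.01 in TOV112D and at 8.62 or more in the other lines. PAX8, a transcription factor of the Mullerian lineage, was at 6.96 in TOV112D and 7.12 in the SKOV3-labelled arrays, against 10.26 in IGROV1 and 10.04 in TOV21G.

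Small leucine-rich proteoglycans are secreted proteins built around a curved stack of leucine-rich repeats, and most of them carry chondroitin, dermatan or keratan sulfate chains. They bind fibrillar collagen and control the width and spacing of fibrils, and several also bind growth factors such as TGF-beta or cell surface receptors. In tissues they are known as products of fibroblasts, chondrocytes, tendon cells and the keratocytes of the cornea, and stromal cells rather than carcinoma cells are their usual source in tumours. Many of the genes lie side by side in the genome. In the RefSeq order of assembly GRCh38.p14, EPYC, KERA, LUM and DCN are consecutive protein-coding genes on chromosome 12, OGN, OMD, ASPN and ECM2 on chromosome 9, and FMOD, PRELP and OPTC on chromosome 1, while BGN lies alone on chromosome X.

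Promoter sequences were looked up by symbol in a RefSeq table of build GRCh38.p14 and were found for 6 of the 10 genes. Those of 3 genes are shown, 1 for each pattern across the lines. EPYC, a gene of the chromosome 12 cluster, was high in TOV112D. BGN was high in the SKOV3-labelled arrays by its probe sets ending in _x_at, and FMOD was high in TOV21G. The 250 bases before the annotated start are given, 5′ to 3′ on the strand of the gene. Capitals mark each match to TATAAA, the sequence of a TATA box, or to GGGCGG, that of a GC box, on either strand. Matches were marked at any distance from the start, and whether any of them acts as such a box was not tested. The windows lie at chr12:91004973-91005222 on the minus strand for EPYC, chrX:153494730-153494979 on the plus strand for BGN and chr1:203351123-203351372 on the minus strand for FMOD. The build is that of the sequence table, since the array values carry none.
EPYC: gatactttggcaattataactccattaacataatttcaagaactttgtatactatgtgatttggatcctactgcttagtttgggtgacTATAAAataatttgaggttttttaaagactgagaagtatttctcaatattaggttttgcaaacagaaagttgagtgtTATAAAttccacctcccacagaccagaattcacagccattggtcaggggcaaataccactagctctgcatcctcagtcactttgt
BGN: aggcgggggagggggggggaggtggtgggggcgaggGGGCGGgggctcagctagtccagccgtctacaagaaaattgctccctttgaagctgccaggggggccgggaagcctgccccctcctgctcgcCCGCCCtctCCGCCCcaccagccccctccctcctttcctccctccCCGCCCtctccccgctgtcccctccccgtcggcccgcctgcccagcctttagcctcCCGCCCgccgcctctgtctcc
FMOD: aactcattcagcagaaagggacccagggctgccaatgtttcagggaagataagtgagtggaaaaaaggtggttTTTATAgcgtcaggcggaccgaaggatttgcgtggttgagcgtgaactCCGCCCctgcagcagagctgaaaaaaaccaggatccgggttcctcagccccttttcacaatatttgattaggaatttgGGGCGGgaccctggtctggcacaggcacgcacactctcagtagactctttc

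The EPYC window held 2 matches to TATAAA, beginning 162 and 85 bases before the start. The FMOD and OGN windows held 1 each, beginning 177 and 200 bases before it, both on the opposite strand. Of 27305 promoter windows of the same length, 11.1% held such a match. BGN held 5 matches to GGGCGG and FMOD 2, a motif present in 42.3% of all windows. The G and C content was 35.6% for EPYC, 51.6% for FMOD and 74% for BGN, against a median of 58% over all windows. Of the other motifs searched on both strands, CCAAT occurred once each in EPYC, FMOD and PRELP (33% of all windows), and the E-box CANNTG occurred 2 times in ASPN and 1 time in OGN (62.2%). The AP-1 motif TGANTCA (6.6%) and the TCF/LEF motif CTTTGAT (2.28%) had 0 matches in the 6 windows. In these 6 windows no 2 matches overlapped.

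The 4 genes of the chromosome 12 cluster were high in TOV112D. In the other 3 lines LUM, KERA and EPYC were near the floor of the scale, while DCN, by the probe set that stands for it, was close to the median of all values. That DCN level depended on the probe set, whose name ends in _x_at. By 209335_at DCN was near the floor as well, with means of 2.15 to 2.20 in those lines. LUM, the gene of lumican, a keratan sulfate proteoglycan of corneal and other connective tissue, was at 11.64, 11.40 and 11.47 in the TOV112D arrays. It was at 2.02, 1.99 and 2.04 in IGROV1, at 2.33, 2.14 and 2.30 in the SKOV3-labelled arrays, and at 1.94, 2.06 and 2.07 in TOV21G. Every TOV112D array lay more than 9 log2 units above every other array, the smallest gap being 9.07. The order of the 3 low lines, from the SKOV3-labelled arrays at 2.25 ± 0.10 (SD, n = 3) to TOV21G at 2.02 ± 0.07 and IGROV1 at 2.01 ± 0.03, covers values at the floor, and TOV21G and IGROV1 overlapped.

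KERA encodes keratocan, a keratan sulfate proteoglycan best known from the corneal stroma. Its level was 7.93, 8.07 and 8.11 in the TOV112D arrays. In IGROV1 it was 1.93, 2.33 and 1.92, in the SKOV3-labelled arrays 1.89, 1.99 and 2.26, and in TOV21G 2.19, 2.14 and 2.22. The 9 low arrays of KERA could not be ordered by line, since IGROV1 and the SKOV3-labelled arrays both spanned the range of TOV21G, and the gap from them to the lowest TOV112D array was 5.61.

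EPYC, the gene of epiphycan, a dermatan sulfate proteoglycan of growth cartilage, was the third of these genes. It was at 5.22, 5.87 and 5.41 in TOV112D. Its values were 2.24, 2.02 and 2.21 in IGROV1, 2.32, 2.03 and 2.37 in the SKOV3-labelled arrays, and 2.28, 2.15 and 2.07 in TOV21G. The TOV112D arrays did not overlap with any other, with a gap of 2.86, while the other 3 lines overlapped among themselves.

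DCN encodes decorin, which carries a single chondroitin or dermatan sulfate chain and binds TGF-beta. By the probe set 211813_x_at, which stands for the gene, it was at 9.76, 9.71 and 9.77 in TOV112D. The levels were 4.69, 4.43 and 4.49 in IGROV1, 4.92, 4.91 and 5.31 in the SKOV3-labelled arrays, and 4.72, 4.65 and 4.56 in TOV21G. By this probe set the SKOV3-labelled arrays were the second highest group and did not overlap with IGROV1 or TOV21G. By 211896_s_at, whose name carries no _x_at mark, they were at 3.14 ± 0.03 (SD, n = 3), between 3.08 ± 0.09 in IGROV1 and 3.24 ± 0.09 in TOV21G, and overlapped with IGROV1.

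**Figure D1:**
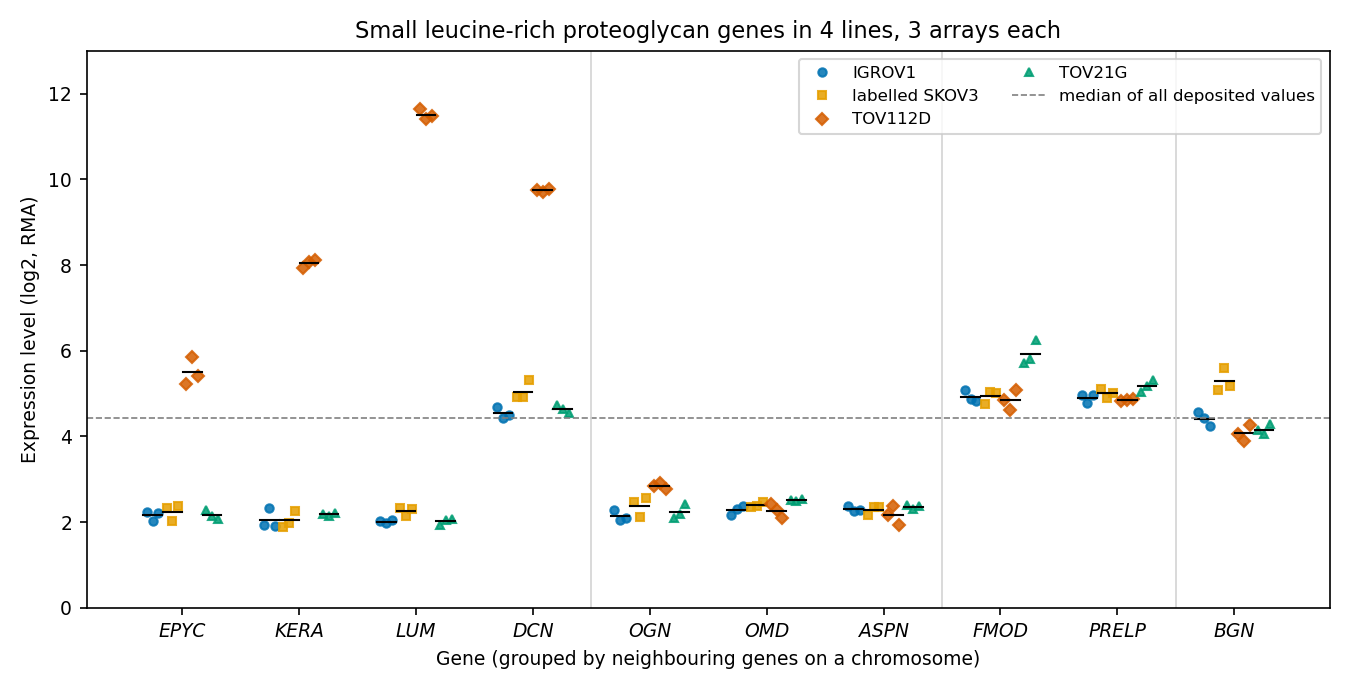
Log2 expression level (vertical axis) of the 10 small leucine-rich proteoglycan genes (horizontal axis, grouped by neighbouring genes) on each of 12 arrays, with 1 symbol per array and a black bar at each line mean. The TOV112D arrays stand apart for EPYC, KERA, LUM and DCN, with gaps of 2.86 to 9.07 to the nearest other array, while OGN, OMD and ASPN stay below 3 in every array.

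The probe sets of the cluster differed in how far they separated TOV112D. Of the 11 probe sets for the 4 genes, 10 had all 3 TOV112D arrays above all 9 others, and 9 did so by at least 1 log2 unit. For LUM the second probe set, 229554_at, gave 6.23 ± 0.10 (SD, n = 3) in TOV112D and 2.34 to 2.43 in the other lines, a separation of 3.80 from the next line against 9.25 by 201744_s_at. For DCN, 4 of the 7 probe sets separated TOV112D from the next line by 4.70 to 6.16: 211813_x_at, 201893_x_at, 209335_at and 211896_s_at. The remaining 3 were dimmer. By 242605_at the TOV112D arrays were at 3.79, 5.04 and 4.07, the widest spread among the cluster's probe sets (SD 0.66), by 240556_at they were at 3.86 to 3.97, and by 239786_at they lay at 2.94 to 3.11 and overlapped with the other lines at 2.97 to 3.36.

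**Figure D2:**
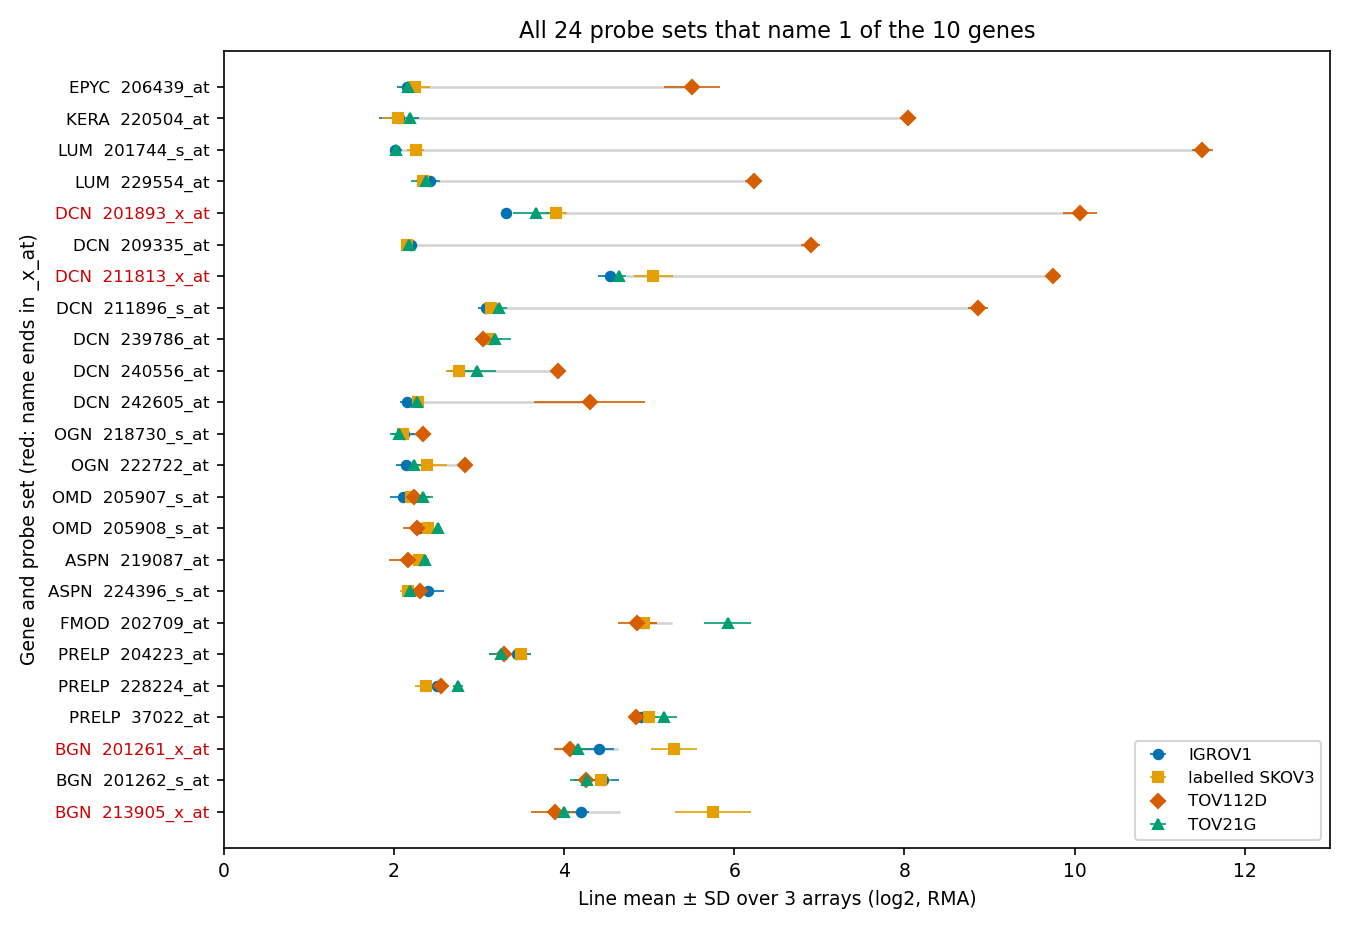
Line mean with SD over 3 arrays (horizontal axis, log2) for each of the 24 probe sets (vertical axis), with names ending in _x_at in red and a grey line from the mean of the other 3 lines to TOV112D. TOV112D lies to the right for 10 of 11 cluster probe sets, and the SKOV3-labelled arrays lie to the right for the 2 BGN probe sets in red but not for 201262_s_at.

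In 4 of the 10 genes, LUM, DCN, KERA and EPYC, every TOV112D array lay at least 1 log2 unit (2-fold) above every other array, which held for 2.25% of all genes. In 5 of the 10, those 4 and OGN, all TOV112D arrays lay above the other 9, which held for 14.3% of all genes. Since the 10 genes were chosen with these values in view, the counts are a description. The median difference of the 10 genes between TOV112D and the mean of the other 3 lines was 0.22, and that of all genes was -0.02.

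The other 6 genes did not share this pattern. Those of the chromosome 9 cluster were at the floor in all 4 lines, with every value of OGN, OMD and ASPN between 1.94 and 2.92. OGN encodes osteoglycin, also called mimecan, a keratan sulfate proteoglycan of bone and cornea. By 222722_at it was at 2.84, 2.92 and 2.77 in TOV112D, at 2.29, 2.06 and 2.09 in IGROV1, at 2.48, 2.12 and 2.56 in the SKOV3-labelled arrays and at 2.09, 2.19 and 2.43 in TOV21G. The TOV112D arrays lay above the others by 0.21, within the part of the scale where transcripts are not told from background, and by 218730_s_at they overlapped with IGROV1.

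OMD, the gene of osteomodulin, a keratan sulfate proteoglycan of bone, was at 2.10 to 2.55 by 205908_s_at, with TOV21G at 2.50 to 2.55 above the other arrays by 0.02. By 205907_s_at the lines overlapped. ASPN, the gene of asporin, which binds collagen and calcium, ranged from 1.94 to 2.41 by 219087_at and from 2.09 to 2.62 by 224396_s_at, and the lines overlapped by both.

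FMOD and PRELP are neighbours on chromosome 1, and TOV21G was the highest line for FMOD. For PRELP it had the highest mean by 2 of 3 probe sets, 1 of them at the floor and the other with overlapping arrays. All TOV21G arrays lay above the other 9 in 2 of the 10 genes, FMOD and OMD, and in 10.6% of all genes. FMOD encodes fibromodulin, a keratan sulfate proteoglycan that binds collagen and modifies its cross-linking. It was at 5.71, 5.81 and 6.24 in TOV21G, against 5.09, 4.88 and 4.82 in IGROV1, 4.75, 5.03 and 5.02 in the SKOV3-labelled arrays, and 4.86, 4.63 and 5.09 in TOV112D. The TOV21G arrays lay 0.62 above all others, the mean was 0.99 above the next line, and the 3 other lines overlapped. With 1 probe set, the FMOD pattern could not be compared between probe sets.

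PRELP encodes prolargin, which anchors basement membranes to connective tissue. By 37022_at it was at 5.04, 5.17 and 5.33 in TOV21G, and these values overlapped with the SKOV3-labelled arrays at 5.10, 4.90 and 5.01. IGROV1 was at 4.96, 4.79 and 4.97 and TOV112D at 4.83, 4.84 and 4.88. By 228224_at TOV21G was again highest at 2.75 ± 0.06 (SD, n = 3), by 0.20 over TOV112D, with all lines at the floor. By 204223_at TOV21G was lowest at 3.25 ± 0.14, so the 3 probe sets disagreed on the order of the lines.

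BGN encodes biglycan, the close relative of decorin, which usually carries a pair of chondroitin or dermatan sulfate chains. Its level depended on the probe set. By the probe set that stands for the gene, all SKOV3-labelled arrays lay above the other 9, as they did for 12.2% of all genes. By 201261_x_at the SKOV3-labelled arrays were at 5.08, 5.59 and 5.19, above IGROV1 at 4.58, 4.43 and 4.24, TOV21G at 4.14, 4.06 and 4.28 and TOV112D at 4.06, 3.89 and 4.26. By 213905_x_at they were at 5.68, 5.34 and 6.23, with a gap of 1.06 to the highest array of any other line. By 201262_s_at, which carries no _x_at mark, the same arrays were at 4.57, 4.35 and 4.38 and overlapped with IGROV1 at 4.34, 4.67 and 4.37. TOV112D was at 4.10, 4.35 and 4.34 by this probe set and TOV21G at 4.40, 4.39 and 4.04. The lines could not be told apart by it, and all of its values lay near the median of the deposited values. With 201262_s_at in place of 201261_x_at, the difference of the SKOV3-labelled arrays from the mean of the other lines went from 1.07 to 0.10.

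The genes on both sides of the chromosome 12 cluster were not raised in TOV112D. The 2 nearest measured genes before EPYC, CCER1 and the noncoding RNA gene LINC00615, showed differences in TOV112D of -0.001 ± 0.07 (SE) and 0.05 ± 0.08 (limma, adjusted p = 0.99 and 0.66, n = 3 arrays per line). After DCN, the noncoding RNA gene LINC01619 was at 2.38 in TOV112D, lower by 0.36 ± 0.13 (adjusted p = 0.036) and below the 2-fold minimum. BTG1, an antiproliferative gene that is widely expressed, was at 8.18 ± 0.09 (SD, n = 3) in TOV112D and 8.26 in TOV21G, against 9.21 in IGROV1 and 9.58 in the SKOV3-labelled arrays. Its TOV112D difference of -0.84 ± 0.06 (SE, adjusted p = 4.2e-08) was also under the minimum for a call. In the cluster genes themselves the differences were 3.31 to 9.41.

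**Figure D3:**
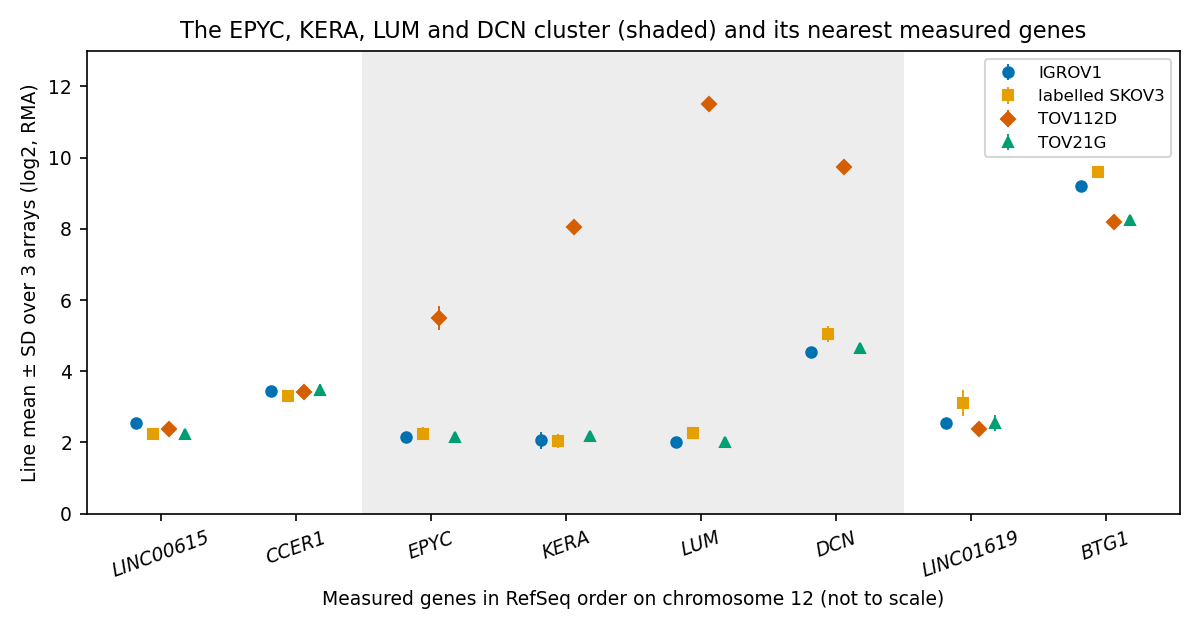
Line mean with SD over 3 arrays (vertical axis, log2) for the 4 cluster genes (shaded) and the 2 nearest measured genes on each side, in RefSeq order (horizontal axis, not to scale). TOV112D lies above the next line by 3.26 to 9.25 at the 4 cluster genes and is not the highest line at any of the 4 genes beside them. Only the lines within a gene can be compared, since each gene has its own probe set.

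A gene is called set apart in a line, here and below, when it lies at least 1 log2 unit (2-fold) above all of the other 3 lines, or below all of them, with an adjusted p under 0.05 in limma for each pair. Among the neighbours of the other genes, ATP2B4 was set apart in TOV112D. ATP2B4, a plasma membrane calcium pump gene next to the chromosome 1 cluster, was at 3.25 in TOV112D and at 8.78 in IGROV1, 7.65 in the SKOV3-labelled arrays and 6.96 in TOV21G, a difference of -4.54 ± 0.11 (SE, limma, adjusted p = 4.6e-12). FMOD and PRELP at 4.86 and 4.85 in that line lay with IGROV1 and the SKOV3-labelled arrays. ECM2, the chromosome 9 neighbour that belongs to the same family, was at 2.88 in TOV112D, 3.08 in IGROV1, 3.20 in TOV21G and 3.80 in the SKOV3-labelled arrays.

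For each gene whose line means spanned at least 2 log2 units, the 3 genes with the most similar profile were taken, by the root mean square difference over the 4 line means after each gene was centred on its own mean. Nearest to LUM were DNM3OS, a noncoding RNA gene (0.45), COL3A1, the gene of type III collagen (0.49), and PRL, the prolactin gene (0.63). DNM3OS was at 10.59 in TOV112D, COL3A1 at 13.27 and PRL at 11.18, and none of the 3 exceeded 3.31 in another line. Nearest to DCN were KRT12, a keratin of the corneal epithelium (0.13), the transcription factor gene TOX (0.17) and PTGS2, the gene of cyclooxygenase 2 (0.23), at 7.53, 7.37 and 7.27 in TOV112D. Nearest to KERA were ROBO2, a receptor of axon guidance (0.05), SLITRK6 (0.13), which also has leucine-rich repeats, and ARMCX1 (0.14). Nearest to EPYC were the angiotensin receptor gene AGTR1 (0.02), LINC00327 (0.05) and the deiodinase gene DIO2 (0.05). The measure depends on the size of the difference as well as its direction, and DCN and KERA, at 0.46, were nearer to each other than either was to LUM (1.91 and 1.51).

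The remaining family genes were flat. OPTC, CHAD, CHADL, NYX, TSKU, PODN, PODNL1 and ECM2 had line means that spanned 0.05 to 0.92, and 0 of 8 were set apart in any line by limma. Of all genes, 2.62% were set apart as higher in IGROV1, 3% in the SKOV3-labelled arrays and 2.37% in TOV21G, and 1.85%, 2.37% and 0.956% as lower. At an unadjusted p under 0.05, 2 of 8 were higher and 1 lower in TOV112D than in the mean of the other lines, which held for 29.3% and 28.8% of all genes. TSKU, the gene of tsukushi, which binds several growth factors, was at 7.03 to 7.43 in all lines. NYX, the gene of nyctalopin of the retina, was between 5.06 and 5.26 by a probe set ending in _x_at. By 221684_s_at it was set apart in IGROV1, at 4.94, 4.80 and 5.30 there and between 3.30 and 4.12 in the other 9 arrays, and was named after its values were seen.

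Genes that the small leucine-rich proteoglycans work with were then examined in TOV112D, in lists chosen by function. The list of collagen fibril genes covers the fibrillar chains, genes that process and cross-link them, and others such as COMP and SERPINH1. COMP and COL2A1 are also among the cartilage markers below, and COL1A2 among the fibroblast markers. Of the list, 6 of 36 were set apart as higher and 0 as lower (16.7% against 3% of all genes, limma). At an unadjusted p under 0.05, 16 were higher and 10 lower (44.4% and 27.8%, against 29.3% and 28.8% of all genes). The 6 set apart as higher became 4 with each array centred on its median. Without the SKOV3-labelled arrays they became 9, where 5.05% of all genes were set apart as higher. COL3A1 was at 13.27 in TOV112D and at 2.74 to 2.78 elsewhere, higher by 10.52 ± 0.08 (SE, adjusted p = 1.9e-16). COL5A2 and COL11A1, minor chains that set fibril width, were at 12.27 and 10.95, and the SKOV3-labelled arrays followed at 10.90 and 9.89. The other 3, given because they complete the count, were the cross-linking enzyme gene LOX at 8.51 and the procollagen processing enhancers PCOLCE and PCOLCE2 at 9.14 and 9.16. COL1A1 and COL1A2, the chains of type I collagen, were not among them: COL1A1 was highest in the SKOV3-labelled arrays at 11.63 and COL1A2 in TOV21G at 7.90, against 8.08 and 3.73 in TOV112D. In the SKOV3-labelled arrays 4 genes of the list were higher and 1 lower (11.1% and 2.78%, against 3% and 2.37% of all genes). In IGROV1 3 were lower (8.33% against 1.85% of all genes) and in TOV21G 2 were higher (5.56% against 2.37%).

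The enzymes that build the glycosaminoglycan chains were examined next. Of 23 genes for the linker, chondroitin and dermatan sulfate, 1 was set apart as higher in TOV112D and 0 as lower by limma (4.35% and 0%, against 3% and 2.38% of all genes), which is near the share over all genes. At an unadjusted p under 0.05, 9 were higher and 9 lower (39.1% each, against 29.3% and 28.8% of all genes). The higher gene was XYLT1, a xylosyltransferase that starts the chain, at 3.98 against 2.30 to 2.51, below the median of deposited values and by a probe set ending in _x_at. By its other probe set the difference was -0.12. DSE, a dermatan sulfate epimerase gene, was at 9.87 in TOV112D and 9.81 in TOV21G, at 8.87 in the SKOV3-labelled arrays, and at 4.85 in IGROV1 (lower there by 4.67 ± 0.07, SE, adjusted p = 6.2e-14). Of the 4 probe sets for DSE, 1 showed this difference. Without the SKOV3-labelled arrays, 2 genes of the list were higher in TOV112D and 3 lower, where 5.05% and 5.22% of all genes were.

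For keratan sulfate, which lumican and keratocan carry, 1 of 10 genes was set apart as lower in TOV112D and 0 as higher by limma, where 2.38% and 3% of all genes were. At an unadjusted p under 0.05, 2 were higher and 5 lower (20% and 50%, against 29.3% and 28.8% of all genes). The lower gene was the sulfotransferase gene CHST2, at 4.21 against 6.76 to 8.51 (by 3.38 ± 0.09, SE, adjusted p = 1.1e-11). By its second probe set the difference was -0.43. CHST6, the sulfotransferase of corneal keratan sulfate, was lower in IGROV1, at 4.12, than in the other lines, at 5.45 to 6.50. Without the SKOV3-labelled arrays the list had 1 gene higher and 3 lower in TOV112D, under a setting in which the shares of all genes were also larger, at 5.05% and 5.22%.

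Among 22 ligands and receptors that the family binds or modulates, 1 was set apart as higher in TOV112D and 3 as lower by limma (4.55% and 13.6%, against 3% and 2.38% of all genes). Of the 22, 7 were higher and 9 lower at an unadjusted p under 0.05 (31.8% and 40.9%, against 29.3% and 28.8% of all genes). TGFB2, the gene of a TGF-beta ligand that decorin and biglycan bind, was at 9.83 in TOV112D, 6.09 in TOV21G, 4.03 in the SKOV3-labelled arrays and 3.46 in IGROV1, higher by 5.31 ± 0.10 (SE, limma, adjusted p = 3.7e-13) and by at least 1 in 4 of 5 probe sets. The lower genes were receptors, and decorin is known to bind the first 2 of them: MET was at 3.47 in TOV112D against 8.52 or more, EGFR at 5.10 against 6.43 to 8.70, and the integrin subunit gene ITGA2 at 4.07 against 5.67 to 9.94. EGFR is outside the naming rule and is given to complete the count. The differences were -6.84 ± 0.12 for MET and -3.42 ± 0.17 for ITGA2 (SE, adjusted p = 1.6e-13 and 3.3e-09). By the probe set that moved least they were -0.65 and -0.88. With probe sets averaged, 1 gene of the list was set apart as higher in TOV112D and 1 as lower. Of all genes, 529 were then higher and 355 lower.

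Of 16 protease genes whose products are known to cleave members of the family or their partners, 3 were set apart as higher in TOV112D and 1 as lower (18.8% against 3%, and 6.25% against 2.38%). ADAMTS5, an aggrecanase gene, was at 10.39 in TOV112D and 2.62 to 4.03 elsewhere, higher by 7.17 ± 0.15 (SE, limma, adjusted p = 8.1e-13), in all 4 of its probe sets. The collagenase gene MMP1 was at 10.33 against 3.22 to 4.82. ADAMTS1, given to complete the count, was at 12.09 against 7.30 to 8.42. The matrilysin gene MMP7 was lower, at 4.67 against 6.97 to 11.99 (by 4.71 ± 0.10, SE, adjusted p = 1.3e-12). Without the SKOV3-labelled arrays, 5 were higher and 2 lower, where 5.05% and 5.22% of all genes were.

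Of 29 genes of other proteoglycans, 6 were set apart as lower in TOV112D and 1 as higher (20.7% against 2.38%, and 3.45% against 3%). At an unadjusted p under 0.05, 15 were lower and 5 higher (51.7% and 17.2%, against 28.8% and 29.3% of all genes), and the median difference of the list was -0.20. SDC2, a heparan sulfate proteoglycan of the cell surface, was at 5.07 against 8.90 to 11.56, and GPC4, a glypican gene, at 4.45 against 7.45 to 10.76 (lower by 5.37 ± 0.12 and 4.88 ± 0.04, SE, limma, adjusted p = 1.9e-12 and 8.5e-16). VCAN, SDC3, SDC4 and COL18A1, given to complete the count, were lower by 2.69, 1.37, 2.85 and 3.08. The 1 higher gene was HAPLN1, the link protein that ties proteoglycans to hyaluronan, at 8.29 against 4.68 to 4.85, in all 4 of its probe sets.

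**Figure D4:**
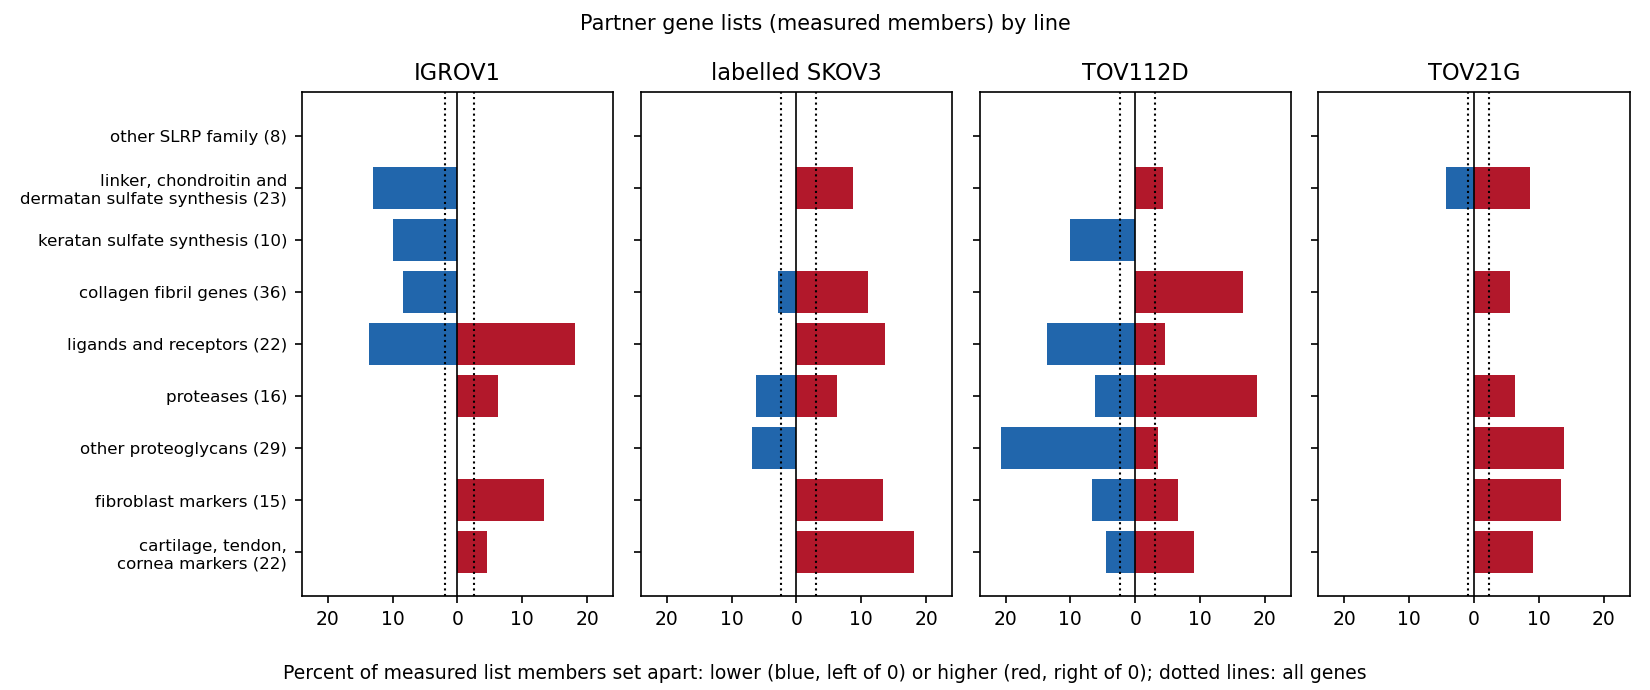
Percent of the measured genes of each list (vertical axis, number measured in brackets) that were set apart as lower (blue, left of 0) or higher (red, right of 0) in each line, with dotted lines at the percent over all 19775 genes. In TOV112D the collagen fibril genes reach 16.7% higher and the other proteoglycans 20.7% lower, and the other family genes have no bar in any line.

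**Figure D5:**
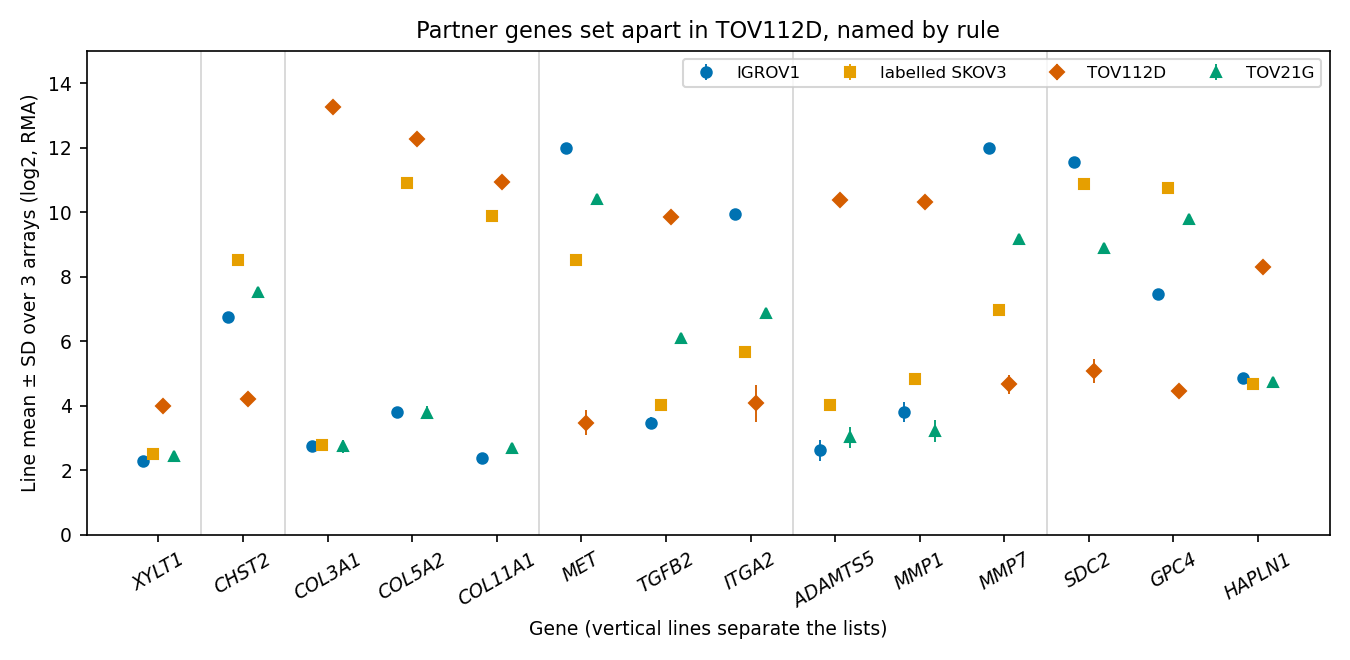
Line mean with SD over 3 arrays (vertical axis, log2) for the partner genes set apart in TOV112D that the naming rule picked (horizontal axis, lists separated by vertical lines). COL3A1, TGFB2, ADAMTS5, MMP1 and HAPLN1 have TOV112D on top, while MET, ITGA2, MMP7, SDC2 and GPC4 have it at the bottom.

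Markers of the cell types that usually make these proteoglycans were set beside the cluster. Of 15 stromal fibroblast markers, 1 was set apart as higher in TOV112D, FAP at 7.58 against 3.83 to 3.95, and 1 as lower, MFAP5 at 2.96 against 4.96 to 9.69 (6.67% each, against 3% and 2.38% of all genes). THY1 and POSTN were at 9.51 and 9.42 in TOV112D and at 9.79 and 9.57 in the SKOV3-labelled arrays, against 4.27 or less in the other lines, and without those arrays 4 markers were higher and 1 lower, where 5.05% and 5.22% of all genes were. The receptor gene PDGFRB was at 4.78 in TOV112D, against 6.245 in the SKOV3-labelled arrays, 4.35 in IGROV1 and 4.39 in TOV21G. PDGFRA and DPT were at 3.22 and 3.54 in TOV112D, and their levels in the other lines are not given here. In TOV112D 5 of the 15 markers were higher and 6 lower at an unadjusted p under 0.05 in limma (33.3% and 40%, against 29.3% and 28.8% of all genes). The mean level over the 15 markers was 6.36 to 6.47 in the TOV112D arrays, 7.35 to 7.41 in the SKOV3-labelled arrays, 5.72 to 5.82 in IGROV1 and 5.85 to 5.91 in TOV21G. By this mean the SKOV3-labelled arrays were highest and TOV112D came next. A link between these markers and the level of the cluster was not tested.

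Of 22 markers of cartilage, tendon and corneal stroma, 2 were set apart as higher in TOV112D and 1 as lower (9.09% against 3%, and 4.55% against 2.38% of all genes). The tendon factor gene MKX was at 6.17 against 2.06 to 3.76, by 2 of its 3 probe sets, COL10A1 at 4.75 against 3.10 to 3.35, and the cartilage matrix gene MATN3 at 2.12 against 4.52 to 5.69. Of the 22, 3 were higher and 12 lower in TOV112D at an unadjusted p under 0.05 in limma. These are 13.6% and 54.5%, against 29.3% and 28.8% of all genes, and the median difference of the list was -0.18. The cartilage genes SOX9 and COL2A1 were highest in the SKOV3-labelled arrays at 10.41 and 10.09, against 4.82 and 3.93 in TOV112D, and COMP was highest in TOV21G at 12.55. The mean level over the 22 markers was 4.46 to 4.53 in TOV112D, 4.33 to 4.37 in IGROV1, 4.95 to 4.98 in TOV21G and 5.34 to 5.43 in the SKOV3-labelled arrays. A part of other cells in the level of the cluster was not tested, and on arrays of whole cultures fewer cells that express a gene cannot be told apart from less RNA per cell.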

How the data were processed

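Total RNA of 4 cell lines was labelled with biotin and hybridised to Affymetrix U133 Plus 2.0 arrays. The authors deposited log2 values for 54675 probe sets on 12 arrays, made by RMA with the affy package per the submitters' processing notes, with no version given in the sources used here. RMA quantile-normalizes the arrays, so it hides any difference in total RNA per cell. No detection calls were used, and the number of arrays limits the precision.

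Probe sets were named from the platform annotation, in which 41097 had 1 gene, 1801 had several and 11777 were unnamed. The 41091 with 1 gene that are not array controls gave 19775 genes, each represented by its brightest probe set. Arrays of 1 line correlated at 0.9972 to 0.9976, arrays of different lines at 0.8892 to 0.9395, and no 2 were identical. The 3' minus 5' difference was 0.07 to 0.15 for GAPDH and 0.35 to 0.66 for ACTB.

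limma 3.58.1 (R 4.3.3) fitted line means to the 12 arrays, with Benjamini-Hochberg adjustment over all genes in each contrast, and was tested on simulated data. Named genes are the 10 family members, the 3 genes set apart with the largest difference per list and line (those of TOV112D are given in full), the 2 nearest measured neighbours per side, the 3 most similar profiles and the line identity genes. The rest of the other family genes and of the genes set apart in a list complete a count, and COL1A1, THY1, POSTN, PDGFRA and DPT were named after their values were seen. GRB7, SMARCA4, ARID1A, WT1 and EPCAM of the last list were at 4.25, 7.11, 10.15, 3.29 and 6.28 in TOV112D. The members and lists were chosen with earlier results of these data known. SCX was listed but is not analysed here.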

Additional observations from a re-analysis of the deposited data

How the results depend on the processing

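Alternatives covered the choice of probe set (their mean, or none ending in _x_at), a filter on dim genes, median centring or quantile normalization, the eBayes prior (trended, robust), a replicate block, each array left out in turn (12 fits) and the SKOV3 label left out. In TOV112D the 4 cluster genes stayed higher than the mean of the other lines under all of them, with LUM at 6.63 to 9.49, KERA at 5.91 to 6.00, DCN at 3.56 to 5.72 and EPYC at 3.13 to 3.45. The lower ends for LUM and DCN came from the mean of all probe sets. Leaving out the SKOV3-labelled arrays raised the genes set apart from 1064 to 2030 in TOV112D and from 658 to 1003 in TOV21G, since fewer lines then had to differ, and the keratan sulfate genes set apart in any line from 2 to 5. Without probe sets ending in _x_at, 1 other family gene was set apart instead of 0, and averaging probe sets left 4 linker, chondroitin and dermatan sulfate genes set apart instead of 7. For TOV112D, XYLT1 then dropped out, as it did without dim genes. Averaging also lowered the genes set apart in TOV112D from 1064 to 884. The share of all genes set apart in any line was not counted, so the list totals over any line cannot be compared with it. Same-numbered arrays of different lines did not deviate together (correlations of -0.10 to 0.13), and with the replicate number as a block the counts of genes set apart were unchanged, with 1064 in TOV112D. Centring each array moved TOV21G by -0.10, and the share of higher genes among those called there went from 58% to 48.8%. Levels of 2 to 3 cannot be ordered, and values given as differences from such a line depend on the floor.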
